A study of Mus musculus with 8 samples.

Results

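NRF2, the transcription factor encoded by *Nfe2l2*, and its antioxidant program were examined in sorted tumor cells through 10 genes: *Nfe2l2* itself, *Keap1*, and 8 classic NRF2 targets (*Nqo1*, *Hmox1*, *Gclc*, *Gclm*, *Txnrd1*, *Srxn1*, *G6pdx* and *Gsr*). They were chosen by name for their known roles, with earlier results of these data known. All 10 were found among the 39089 genes counted. The cells were Myc-CaP, a *Myc*-driven line from mouse prostate cancer, with a control vector (EV) or with a guide RNA that targets *Arid1a* (KO), which encodes a component of SWI/SNF chromatin remodelers. They were inoculated under the skin of male FVB mice aged 6 weeks, and from day 16 the mice received by daily gavage, for 2 weeks, either JSH-23, which blocks nuclear entry of the NF-κB subunit p65, or the corn oil vehicle. EpCAM-positive, CD45-negative cells of the tumors were sorted and sequenced, 2 samples per group in 4 groups (EV with vehicle, EV with JSH-23, KO with vehicle, KO with JSH-23). The labels do not say whether the 2 samples of a group came from separate mice, or whether the KO line was a clone, so p-values measure only the spread between these samples.

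KEAP1 holds NRF2 in the cytoplasm and hands it to a CUL3 ubiquitin ligase for degradation. Oxidants and electrophiles modify cysteines of KEAP1, NRF2 then escapes, enters the nucleus and binds antioxidant response elements together with small MAF proteins. Because much of this control acts on the protein, mRNA levels of *Nfe2l2* do not report NRF2 activity, and the target genes are commonly read in its place. The targets serve glutathione synthesis and recycling, the thioredoxin system, NADPH supply, heme breakdown and quinone reduction.

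RefSeq promoters (GRCm38.p6, 250 bases before to 50 after the transcription start) were held for 7 of the 10 genes, with 9 promoters because *Txnrd1* has 3. They were searched on both strands for the antioxidant response element core TGACNNNGC, for TGACTCAGC, which is contained in that core, and for its other form TGAGTCAGC, which was added after the sequences had been read. The core was found in 5 of the 9 promoters and in 12.4% of all 32851 promoters. TGACTCAGC was found in none of the 9 and in 0.454% of all, and TGAGTCAGC in the *Srxn1* promoter and in 0.414% of all. A match describes letters only. The 3 promoters shown in full belong to the targets that moved most under JSH-23 among those held, *Gclm* and *G6pdx* upward and *Srxn1* downward, and capitals mark the matches. Positions are counted from the start that the promoter table uses, which for *Gclm* and for the *Txnrd1* promoter with a match lies inside the annotated gene and not at its first base. The *Gclm* promoter (chr3:122245307-122245606, plus strand) held the core on the reverse strand at positions -134 to -126 from the start, the *Srxn1* promoter (chr2:152105274-152105573, plus strand) held TGAGTCAGC at -45 to -37 and the core on the reverse strand at 29 to 37, and the *G6pdx* promoter (chrX:74428831-74429130, minus strand) held the core on the reverse strand at -57 to -49.
Gclm: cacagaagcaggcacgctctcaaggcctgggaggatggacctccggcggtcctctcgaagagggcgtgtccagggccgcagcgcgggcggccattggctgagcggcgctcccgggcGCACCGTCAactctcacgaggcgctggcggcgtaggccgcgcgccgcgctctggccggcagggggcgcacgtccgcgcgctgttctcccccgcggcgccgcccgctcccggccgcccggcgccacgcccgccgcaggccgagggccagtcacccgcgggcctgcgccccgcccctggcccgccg
Srxn1: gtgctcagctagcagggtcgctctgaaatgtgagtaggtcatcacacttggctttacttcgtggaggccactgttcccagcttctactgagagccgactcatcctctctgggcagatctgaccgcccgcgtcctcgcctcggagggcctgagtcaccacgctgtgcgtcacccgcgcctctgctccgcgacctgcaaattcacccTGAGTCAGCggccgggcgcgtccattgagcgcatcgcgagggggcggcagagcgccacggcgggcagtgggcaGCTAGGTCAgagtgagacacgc
G6pdx: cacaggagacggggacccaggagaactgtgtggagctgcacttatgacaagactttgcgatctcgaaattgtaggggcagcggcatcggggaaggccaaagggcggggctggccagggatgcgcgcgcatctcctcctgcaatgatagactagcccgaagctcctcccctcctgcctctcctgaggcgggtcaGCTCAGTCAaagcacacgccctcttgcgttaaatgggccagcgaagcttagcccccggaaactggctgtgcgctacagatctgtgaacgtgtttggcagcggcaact

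The other matches are shown with up to 20 bases on each side. In *Nfe2l2* itself (promoter chr2:75704614-75704913, minus strand) the core lay on the gene's strand at -240 to -232, and in 1 of the 3 *Txnrd1* promoters (chr10:82858956-82859255, plus strand) on the reverse strand at -92 to -84. The promoters of *Keap1* and *Nqo1* and the other 2 of *Txnrd1* held none of the 3 words in this window.
Nfe2l2: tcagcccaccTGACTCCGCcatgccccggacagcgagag
Txnrd1: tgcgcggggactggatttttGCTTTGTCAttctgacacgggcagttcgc

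The libraries held 16401581 to 21972231 counts, at which 3 counts, taken as the lowest level told from 0, corresponded to 0.137 to 0.183 CPM (counts scaled to library size, with TMM factors in all values that follow). Intervals and floors of this kind cover counting error only. *Arid1a* mRNA was lower in KO samples than in EV samples, with log2 fold changes of -0.60 with vehicle and -0.66 with JSH-23, and was still present at 93.8 to 106 CPM in every KO sample. *Epcam*, the marker of the sort, had 0 to 4 counts in each sample, *Cdh1* 1 to 19 and *Krt18* 4 to 18, whereas *Krt8* ranged from 32.8 to 113 CPM and *Krt19* from 11.6 to 104 CPM. The 11 macrophage markers summed to 10.4 to 22.6 CPM, the 6 neutrophil markers to 0 to 0.529 CPM, the 4 T cell markers to at most 0.145 CPM, the 7 fibroblast markers to 42.0 to 66.2 CPM, the 4 endothelial markers to 0.533 to 1.68 CPM and the 6 erythroid markers to 5.29 to 13.6 CPM. Most of the fibroblast sum was *Pdgfra*, at 38.1 to 61.3 CPM, and no other marker of that list was above 3.59 CPM in any sample. Fewer cells of a type and less RNA per cell cannot be told apart in these bulk samples.

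Per length, the genes differed widely in level. Averaged over the 8 samples, *G6pdx* was at 150 TPM (a count per gene length, scaled to a fixed sum per sample), followed by *Hmox1* at 124, *Gclc* at 123, *Gclm* at 82.8, *Txnrd1* at 72.7, *Gsr* at 70.5, *Keap1* at 62.0, *Srxn1* at 49.9 and *Nfe2l2* at 38.7 TPM. The sample ranges of *G6pdx* (110 to 168 TPM), *Hmox1* (62.0 to 206 TPM) and *Gclc* (105 to 149 TPM) overlapped, and the order depended on the group. *Hmox1* was above *G6pdx* in both vehicle groups, at 205 against 153 TPM in EV and 142 against 112 TPM in KO, and below it in both groups with JSH-23. *Nqo1*, the quinone reductase most often used to read NRF2 activity, was at 0.210 TPM. Its counts were 0 and 8 in EV with vehicle, 2 and 2 in EV with JSH-23, 0 and 4 in KO with vehicle, and 3 and 0 in KO with JSH-23. It did not pass the filter on low counts, 6 of its 8 counts were at or under 3, and no fold change is given. The other 9 genes were tested.

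**Figure D1:**
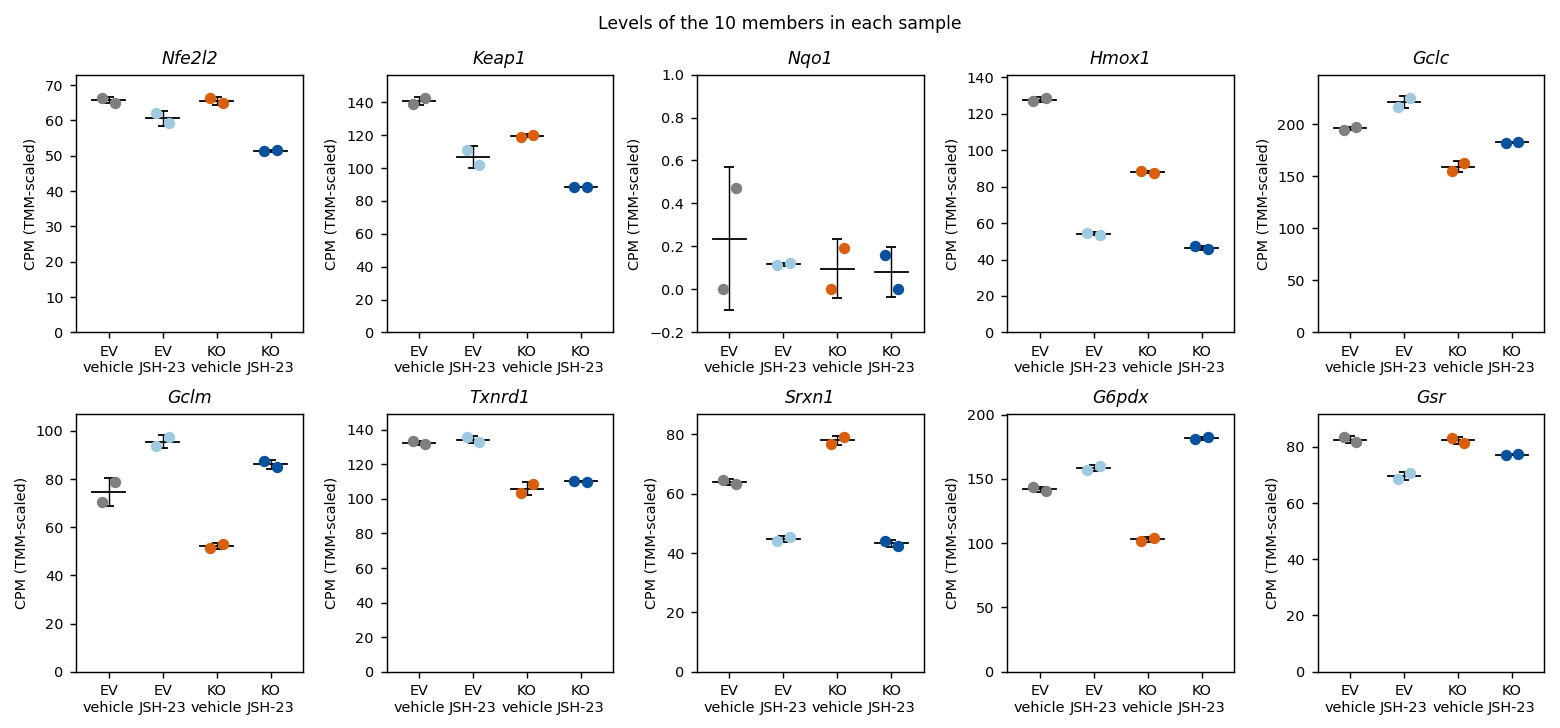
Levels of the 10 genes in each sample, in TMM-scaled CPM on linear axes; points are samples, horizontal lines are group means and bars are SD (n = 2). *Hmox1* and *Srxn1* sit lower with JSH-23 in both genotypes, *Gclm* and *G6pdx* sit higher, and *Nqo1*, drawn on its own scale, stays under 0.5 CPM in every sample.

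The first comparison asks what loss of *Arid1a* does in vehicle-treated tumors. Of the 9 genes, 6 were lower in KO (*Keap1*, *Hmox1*, *Gclc*, *Gclm*, *Txnrd1* and *G6pdx*) and 1 was higher (*Srxn1*) at adjusted p under 0.05, while *Nfe2l2* and *Gsr* did not pass. Over all 13921 genes tested, 25.5% were lower and 25.0% higher by the same rule. The median log2 fold change of the 9 genes was -0.30, against 0.0032 over all genes. None of the 9 reached 1.5-fold, which 12.6% of all genes did. When the biological coefficient of variation was set to 0.1, where the pairs of samples gave 1.61%, 3 of the 9 (*Hmox1*, *Gclm* and *G6pdx*) and 20.6% of all genes were called.

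With JSH-23 in both genotypes, 6 of the 9 were lower in KO than in EV (*Nfe2l2*, *Keap1*, *Hmox1*, *Gclc*, *Gclm* and *Txnrd1*) and 2 were higher (*G6pdx* and *Gsr*, of which *Gsr* changed sign on the TPM scale). Over all genes 23.8% were lower and 23.2% higher. None of the 9 and 8.71% of all genes reached 1.5-fold. With a coefficient of 0.1, 0 of the 9 and 13.6% of all genes were called, against 8 of the 9 in edgeR's quasi-likelihood test. The median log2 fold change was -0.23, against -0.011 over all genes. On log2(TPM + 1), where the median of all genes was -0.16, 7 of the 9 were lower and 0 higher.

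With JSH-23, genes among the 9 moved in both directions in each genotype, as did genes over all. In EV tumors *Gclc*, *Gclm* and *G6pdx* rose and *Keap1*, *Hmox1*, *Srxn1* and *Gsr* fell, so that 3 of the 9 were higher and 4 lower, beside 28.6% and 27.2% of all genes. Only *Hmox1* among the 9 reached 1.5-fold, beside 15.8% of all genes, and *Keap1*, *Hmox1* and *Srxn1* were called with a coefficient of 0.1, beside 26.1%. In KO tumors *Gclc*, *Gclm* and *G6pdx* again rose, *Gclc* with a change of sign on the TPM scale, and *Nfe2l2*, *Keap1*, *Hmox1* and *Srxn1* fell, beside 33.4% of all genes higher and 34.4% lower. There 4 of the 9 reached 1.5-fold (*Hmox1*, *Gclm*, *Srxn1* and *G6pdx*), beside 26.0% of all genes. With a coefficient of 0.1, 6 of the 9 were called in KO tumors, those 4 with *Nfe2l2* and *Keap1*, beside 43.2% of all genes. On log2(TPM + 1), with a median of all genes of -0.20, 6 of the 9 were lower and 2 higher in KO. The medians of the 9 were -0.12 in EV and -0.092 in KO, against -0.0061 and -0.020 over all genes.

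**Figure D2:**
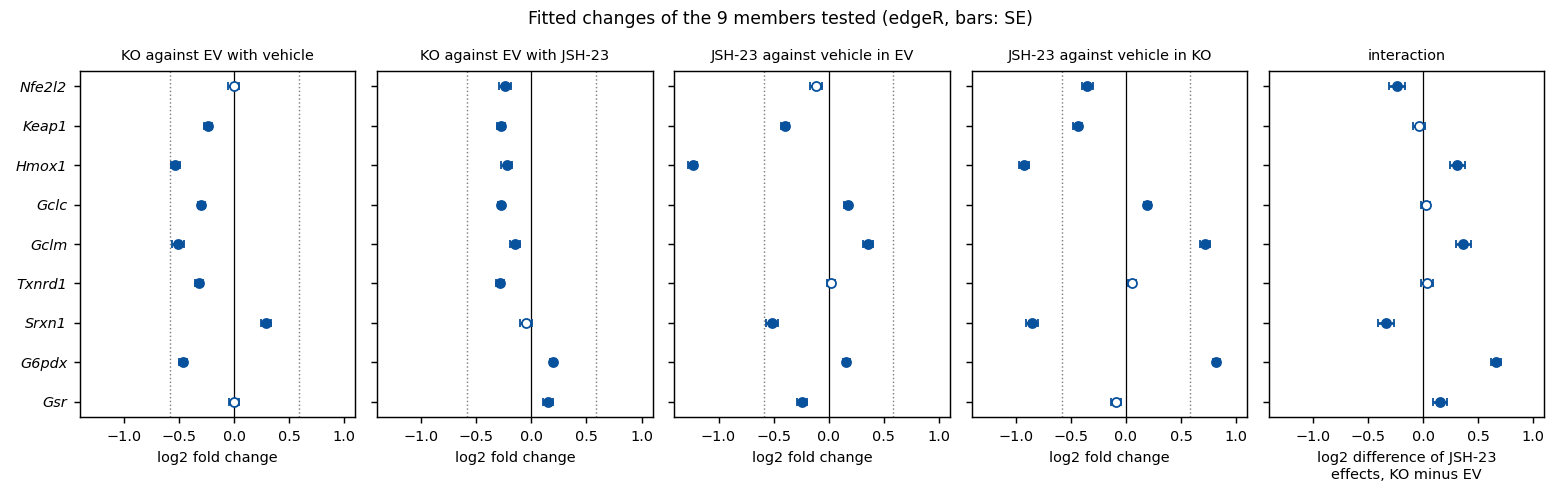
Log2 fold changes of the 9 tested genes in the 4 pairwise comparisons and the interaction, with SE from edgeR's quasi-likelihood fit; filled points have an adjusted p under 0.05, and dotted lines mark 1.5-fold. *Hmox1* is the leftmost point under JSH-23 in EV at -1.24 and *G6pdx* the rightmost under JSH-23 in KO at 0.82; on the TPM scale *Gclc* and *Txnrd1* turn negative under JSH-23 in KO, *Gsr* in KO against EV with JSH-23, *Txnrd1* under JSH-23 in EV, and *Gclc*, *Txnrd1* and *Gsr* in the interaction.

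The interaction tested whether the JSH-23 effect differed between KO and EV. It was called for 6 of the 9 genes, 4 with a more positive effect in KO (*Hmox1*, *Gclm*, *G6pdx* and *Gsr*) and 2 with a more negative effect (*Nfe2l2* and *Srxn1*), beside 20.5% and 17.9% of all genes. On log2(TPM + 1), where the median of all genes was -0.17, the 6 genes called were 1 higher (*G6pdx*) and 5 lower (*Nfe2l2*, *Srxn1*, *Keap1*, *Gclc* and *Txnrd1*). With a coefficient of 0.1 only *G6pdx* among the 9 was called, beside 5.37% of all genes. The *Gsr* call was close to the threshold (adjusted p = 0.047), was lost when any of 7 of the 8 samples was left out, and its sign turned on the TPM scale.

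The regulators were lowest in KO tumors with JSH-23. *Nfe2l2* (chr2:75675513-75704663, minus strand) stood at 66.3 and 65.1 CPM in EV with vehicle, 62.0 and 59.2 in EV with JSH-23, 66.4 and 64.8 in KO with vehicle, and 51.2 and 51.6 in KO with JSH-23. The EV and KO samples with vehicle overlapped, and both KO samples with JSH-23 lay below all others. With JSH-23, *Nfe2l2* in KO fell by 21.6% (log2 fold change -0.35, SE 0.050, adjusted p = 7.28e-09). In EV the log2 fold change was -0.12 (SE 0.051, adjusted p = 0.0502). That EV value was called with library size alone (-0.13), with at least 10 counts in every sample (-0.13) and on log2(TPM + 1) (-0.15). The difference between the genotypes was -0.24 (SE 0.072, adjusted p = 0.00637). DESeq2 did not call that difference. KO against EV gave -0.0032 (SE 0.050) with vehicle and -0.24 (SE 0.052) with JSH-23.

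*Keap1* (chr9:21229730-21239332, minus strand), the inhibitor, stood at 139 and 143 CPM in EV with vehicle, 111 and 102 in EV with JSH-23, 119 and 120 in KO with vehicle, and 88.2 and 88.2 in KO with JSH-23. No 2 groups overlapped. Both *Arid1a* loss and JSH-23 went with lower *Keap1*. JSH-23 gave log2 fold changes of -0.40 (SE 0.038, adjusted p = 1.48e-14) in EV and -0.44 (SE 0.039, adjusted p = 2.25e-16) in KO. The interaction of -0.041 (SE 0.054) did not pass (adjusted p = 0.59), though it was called at -0.14 with library size alone and at -0.23 on log2(TPM + 1). KO against EV gave -0.24 (SE 0.037) with vehicle and -0.28 (SE 0.040) with JSH-23. The within-sample ratio of *Nfe2l2* to *Keap1* in TPM was 0.547 ± 0.018 (SD, n = 2) in EV with vehicle and 0.642 ± 0.016 in KO with vehicle, and reached 0.666 ± 0.018 and 0.682 ± 0.0033 with JSH-23.

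Glutathione synthesis begins with glutamate-cysteine ligase, whose catalytic subunit is encoded by *Gclc* and its modifier subunit by *Gclm*. *Gclm* (chr3:122245487-122267215, plus strand) stood at 70.4 and 78.6 CPM in EV with vehicle, 93.7 and 97.4 in EV with JSH-23, 51.5 and 53.2 in KO with vehicle, and 87.6 and 85.0 in KO with JSH-23. Both KO samples with vehicle were the lowest, and with JSH-23 the KO samples lay above both EV samples with vehicle. In TPM these 2 groups overlapped, at 84.5 and 81.3 in KO with JSH-23 against 79.4 and 88.9 in EV with vehicle. JSH-23 raised *Gclm* 1.28-fold in EV (log2 0.36, SE 0.047, adjusted p = 7.75e-10) and 1.65-fold in KO (log2 0.72, SE 0.048, adjusted p = 1.03e-21). The difference of 0.36 (SE 0.067, adjusted p = 8.37e-06) was no longer called on the TPM scale. KO against EV gave -0.51 (SE 0.051) with vehicle. With JSH-23 it gave -0.15 (SE 0.044, adjusted p = 0.00422), a call lost in DESeq2 and without EV with JSH-23 replicate 2 (-0.12) or KO with JSH-23 replicate 2 (-0.12).

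*Gclc* (chr9:77754535-77794489, plus strand) moved less than *Gclm*. It stood at 195 and 197 CPM in EV with vehicle, 217 and 225 in EV with JSH-23, 155 and 163 in KO with vehicle, and 182 and 183 in KO with JSH-23. The groups did not overlap, and every KO sample lay below every EV sample. KO against EV gave -0.30 (SE 0.031, adjusted p = 2.39e-13) with vehicle and -0.28 (SE 0.029, adjusted p = 1.01e-12) with JSH-23. JSH-23 raised *Gclc* by 12.7% in EV and by 14.5% in KO, the latter -0.040 in log2 on the TPM scale, where the median of all genes was -0.20. The ratio of *Gclc* to *Gclm* in TPM was 1.59 ± 0.11 in EV and 1.83 ± 0.020 in KO with vehicle, and 1.39 ± 0.0015 and 1.27 ± 0.030 with JSH-23 (SD, n = 2 each).

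*Gsr* (chr8:33653238-33698162, plus strand), glutathione reductase, returns oxidized glutathione to its reduced form with NADPH. It stood at 83.4 and 81.6 CPM in EV with vehicle, 68.6 and 70.7 in EV with JSH-23, 83.3 and 81.5 in KO with vehicle, and 77.2 and 77.3 in KO with JSH-23. The vehicle groups overlapped, and KO against EV gave -0.0032 (SE 0.044). With JSH-23, *Gsr* fell by 15.6% in EV (log2 -0.25, SE 0.046, adjusted p = 5.17e-06), and in KO the value was -0.092 (SE 0.043, adjusted p = 0.0528). That KO value was called with library size alone (-0.21) and on log2(TPM + 1) (-0.33), where the medians of all genes were -0.13 and -0.20. With JSH-23, KO against EV gave 0.15 (SE 0.045, adjusted p = 0.00451), a call lost with library size alone and without EV with JSH-23 replicate 1 (0.13), and -0.041 on log2(TPM + 1).

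**Figure D3:**
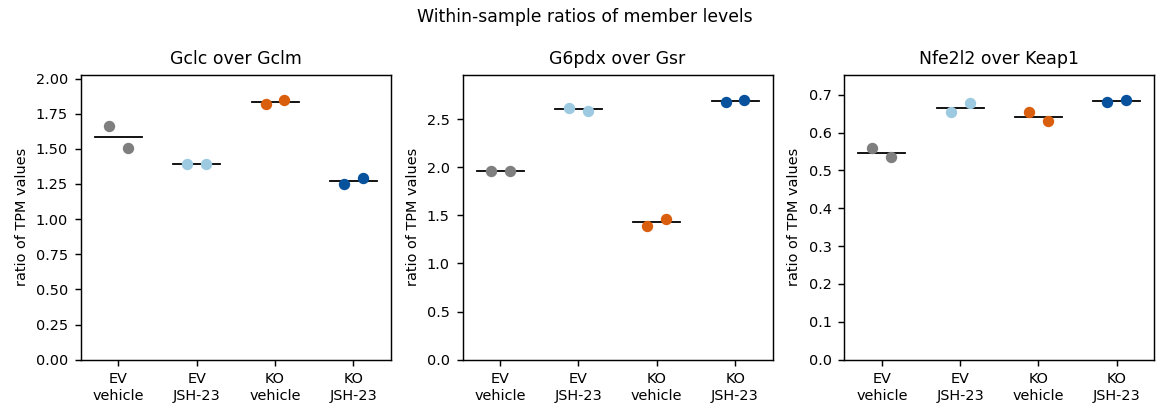
Ratios of TPM values within each sample for *Gclc* over *Gclm*, *G6pdx* over *Gsr* and *Nfe2l2* over *Keap1*; points are samples and lines are means of 2. *G6pdx* over *Gsr* spans the widest range, from 1.39 in a KO sample with vehicle to 2.70 in a KO sample with JSH-23.

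In the thioredoxin system, *Txnrd1* encodes cytosolic thioredoxin reductase and *Srxn1* encodes sulfiredoxin, which repairs overoxidized peroxiredoxins. *Srxn1* (chr2:152105524-152111376, plus strand) stood at 64.6 and 63.2 CPM in EV with vehicle, 44.0 and 45.5 in EV with JSH-23, 77.0 and 79.1 in KO with vehicle, and 44.0 and 42.5 in KO with JSH-23. It was the only gene of the 9 that was higher in KO with vehicle (log2 0.29, SE 0.049, adjusted p = 7.53e-07). With JSH-23 it fell by 30.0% in EV (log2 -0.51, SE 0.055, adjusted p = 1.13e-12) and fell by 44.6% in KO (log2 -0.85, SE 0.051, adjusted p = 3.4e-24). With JSH-23 the genotypes differed by -0.049 (SE 0.058, adjusted p = 0.513), or -0.23 on log2(TPM + 1), where it was called. The JSH-23 effects differed by -0.34 (SE 0.076, adjusted p = 0.000177).

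*Txnrd1* (chr10:82833951-82897724, plus strand) followed the genotype. It stood at 133 and 132 CPM in EV with vehicle, 136 and 133 in EV with JSH-23, 103 and 108 in KO with vehicle, and 110 and 110 in KO with JSH-23. Every KO sample lay below every EV sample. KO against EV gave -0.32 (SE 0.036, adjusted p = 8.49e-12) with vehicle and -0.29 (SE 0.036, adjusted p = 2.68e-10) with JSH-23. The JSH-23 values of 0.021 (SE 0.036) in EV and 0.056 (SE 0.037) in KO did not pass, and on log2(TPM + 1) they were -0.020 and -0.18, the second of them called.

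*G6pdx* (chrX:74409483-74428880, minus strand), glucose-6-phosphate dehydrogenase, makes NADPH in the first step of the pentose phosphate pathway. It stood at 143 and 140 CPM in EV with vehicle, 157 and 160 in EV with JSH-23, 102 and 104 in KO with vehicle, and 181 and 182 in KO with JSH-23. The KO samples were thus the lowest of all with vehicle and the highest of all with JSH-23. In TPM the groups with JSH-23 overlapped, at 166.9 and 166.9 in KO against 165.1 and 167.7 in EV. JSH-23 raised it 1.12-fold in EV (log2 0.16, SE 0.033, adjusted p = 3.09e-05) and 1.76-fold in KO (log2 0.82, SE 0.033, adjusted p = 1.03e-33). The difference of 0.66 (SE 0.047, adjusted p = 1.03e-19) was called in every alternative run. KO against EV was -0.46 (SE 0.035) with vehicle and 0.20 (SE 0.031) with JSH-23, or 0.0047 on log2(TPM + 1), where it was not called. *G6pdx* over *Gsr*, a maker and a user of NADPH, was 1.97 ± 0.00071 in EV and 1.43 ± 0.047 in KO with vehicle, and 2.60 ± 0.021 and 2.69 ± 0.012 with JSH-23 (ratio of TPM, SD, n = 2 each).

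*Hmox1* (chr8:75093618-75100593, plus strand), the inducible heme oxygenase that degrades heme to biliverdin, iron and carbon monoxide, showed the largest change of the 9. It stood at 127 and 129 CPM in EV with vehicle, 54.8 and 53.6 in EV with JSH-23, 88.6 and 87.8 in KO with vehicle, and 47.2 and 45.6 in KO with JSH-23. No groups overlapped. With JSH-23 it fell by 57.6% in EV (log2 -1.24, SE 0.045, adjusted p = 7.09e-36) and fell by 47.4% in KO (log2 -0.93, SE 0.047, adjusted p = 3.25e-28). The effects differed by 0.31 (SE 0.066, adjusted p = 7.92e-05), which was not called on the TPM scale. KO against EV gave -0.54 (SE 0.040) with vehicle and -0.23 (SE 0.052) with JSH-23. Macrophages can also express *Hmox1*. The summed macrophage markers were 20.9 and 22.5 CPM in EV with vehicle, 20.8 and 10.6 in EV with JSH-23, 20.3 and 22.6 in KO with vehicle, and 13.2 and 10.4 in KO with JSH-23. The markers in that sum did not move alike. From EV to KO with vehicle, *Cd68* went from 110 and 127 to 301 and 378 counts, whereas *Lyz2* went from 164 and 165 to 54 and 71, *Csf1r* from 21 and 24 to 2 and 6, *Adgre1* from 17 and 19 to 0 and 0, and *Itgam* from 10 and 15 to 0 and 0. In EV with JSH-23, *Lyz2* had 190 and 85 counts, *Csf1r* 15 and 1, *Adgre1* 17 and 1 and *Itgam* 12 and 0. Their part in the *Hmox1* values was not tested.

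Across the 8 samples the members fell into different patterns, given here as Pearson correlations of log2 CPM that rest on 4 groups of like samples. *Hmox1* ran closest to *Keap1* (r = 0.96), and *Nfe2l2* also to *Keap1* (r = 0.92). *Gclm* ran closest to *G6pdx* (r = 0.91), and *Gclc* to *Txnrd1* (r = 0.90). *Srxn1* ran opposite to *G6pdx* (r = -0.94) and to *Gclm* (r = -0.92), although all 3 are listed as NRF2 targets. A search for like profiles covered 12241 genes for *Nfe2l2* and 12242 for the mean of the 7 tested targets. A high r picked from so many genes over 4 groups does not show a link. The profiles most like *Nfe2l2* were *9130020K20Rik*, *Zfp12* and *Slc39a3* (each r = 0.99). The mean of the 7 tested targets was most like *Sorbs2* (r = 0.99), *Eno3* (r = 0.99) and *Ajuba* (r = 0.98). That mean followed most of its own targets weakly. Its r was 0.76 with *Txnrd1*, 0.73 with *Hmox1*, 0.46 with *Gclc*, 0.22 with *Gsr*, 0.20 with *Srxn1*, 0.16 with *Gclm* and 0.039 with *G6pdx*.

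The wider pathway was followed through 7 further lists. Among all genes tested, 25.0% were higher and 25.5% lower in KO with vehicle, 28.6% and 27.2% with JSH-23 in EV, and 33.4% and 34.4% with JSH-23 in KO. Of 7 other genes listed for NADPH supply, *Pgd*, *Me1*, *Idh1* and *H6pd* encode enzymes that make NADPH, and *Taldo1*, *Tkt* and *Pgls* do not. In this list, with *Arid1a* loss under vehicle 5 fell and 0 rose (median log2 -0.32). With JSH-23, 6 rose and 1 fell in KO (median 0.60), against 4 and 3 in EV (median 0.16). The medians of -0.32 and 0.60 were the values of *Tkt*, and 0.16 that of *Pgls*. Among the enzymes that make NADPH, JSH-23 gave 0.11 for *H6pd* and 0.19 for *Me1* in KO, and only *Idh1* rose in EV (0.70). The gene that fell in KO was *Pgd*, 6-phosphogluconate dehydrogenase (log2 -0.22, SE 0.030), and those that fell in EV, where *G6pdx* rose, were *Pgd* (-0.30, SE 0.031), *Me1*, malic enzyme (-0.24, SE 0.045), and *H6pd*, the endoplasmic reticulum counterpart of *G6pdx* (-0.25, SE 0.021); *Pgd*, *Me1* and *H6pd* were named after their values were seen. With JSH-23 in KO, *Idh1*, cytosolic isocitrate dehydrogenase, went from 15.0 and 14.1 to 30.4 and 29.8 CPM (log2 1.05, SE 0.084). *Taldo1*, transaldolase, went there from 61.2 and 59.4 to 122 and 121 CPM (log2 1.01, SE 0.043). *Pgls*, 6-phosphogluconolactonase, went there from 73.3 and 73.0 to 119 and 118 CPM (log2 0.70, SE 0.039). In EV, JSH-23 gave 0.70 for *Idh1*, 0.88 for *Taldo1* and 0.16 for *Pgls*.

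Of 15 tested glutathione genes, JSH-23 raised 11 and lowered 2 in each genotype, with medians of 0.26 in EV and 0.37 in KO, beside 28.6% of all genes higher and 27.2% lower in EV and 33.4% and 34.4% in KO. *Slc7a11*, which serves cystine uptake, was lowered in both genotypes (log2 -0.45 in EV and -0.60 in KO). The other gene lowered was *Gpx1* in EV (-0.19) and *Abcc4* in KO (-0.74). *Arid1a* loss under vehicle raised 5 and lowered 6 (median 0.056), beside 25.0% and 25.5% of all genes, and under JSH-23 raised 4 and lowered 6 (median -0.042), beside 23.2% and 23.8%. *Gstp1*, a glutathione S-transferase whose reads can be shared with its near-identical neighbor *Gstp2*, went from 92.4 and 95.4 to 195 and 172 CPM with JSH-23 in KO (log2 0.96, SE 0.037). *Gsta4*, which conjugates lipid aldehydes, rose by 0.79 (SE 0.079) there. In EV, JSH-23 gave 0.73 for *Gstp1* and 0.74 for *Gsta4*. *Ggt1*, which breaks down extracellular glutathione, was lower in KO than in EV with JSH-23 (log2 -0.83, SE 0.076).

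Of 11 genes of the thioredoxin list, 3 were higher and 7 lower in KO with vehicle (median -0.27), beside 25.0% and 25.5% of all genes. JSH-23 raised 8 and lowered 2 in KO (median 0.26), beside 33.4% and 34.4%, and raised 5 and lowered 4 in EV (median 0.014), beside 28.6% and 27.2%. *Txn1*, thioredoxin itself, went from 212 and 199 to 381 and 383 CPM with JSH-23 in KO (log2 0.90, SE 0.026). *Sesn2*, a stress-induced sestrin, went the other way, from 60.2 and 63.1 to 21.2 and 24.7 CPM (log2 -1.42, SE 0.066). In EV, JSH-23 gave 0.27 for *Txn1* and -0.29 for *Sesn2*. *Txnrd3* fell by 0.64 (SE 0.11) with JSH-23 in EV, and its value in KO was -0.46.

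Among 11 detoxification genes JSH-23 raised 8 and lowered 1 in EV (median 0.46), beside 28.6% and 27.2% of all genes, and raised 6 and lowered 2 in KO (median 0.40), beside 33.4% and 34.4%. In KO with vehicle 2 were higher and 6 lower (median -0.24), beside 25.0% and 25.5%. The 2 higher rested on few counts. From EV to KO with vehicle, *Cbr1* went from 6 and 10 to 24 and 20 counts, and *Aldh3a1* from 12 and 13 to 32 and 25. *Cbr3*, a carbonyl reductase, rose from 2.54 and 2.42 to 6.70 and 6.38 CPM with JSH-23 in KO (log2 1.40, SE 0.18). *Ptgr1*, a reductase of reactive alkenals, rose there from 16.4 and 15.5 to 30.2 and 32.8 CPM (log2 0.99, SE 0.082). In EV, JSH-23 gave 0.91 for *Cbr3* and 0.56 for *Ptgr1*. *Aldh3a1*, an aldehyde dehydrogenase, rose in EV from 0.713 and 0.765 to 1.45 and 2.37 CPM (log2 1.35, SE 0.39).

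Of 7 tested genes of heme synthesis, transport and breakdown and of iron storage, JSH-23 raised 4 and lowered 1 in EV (median 0.39), beside 28.6% and 27.2% of all genes, and raised 5 and lowered 1 in KO (median 0.24), beside 33.4% and 34.4%. In KO with vehicle 3 were higher and 1 lower (median 0.15), beside 25.0% and 25.5%. The gene that fell was *Blvra*, biliverdin reductase A, in both genotypes. In KO it went from 21.4 and 21.0 to 6.54 and 6.43 CPM (log2 -1.71, SE 0.11), and in EV the log2 fold change was -1.09 (SE 0.11). *Blvrb*, biliverdin reductase B, rose in EV from 21.2 and 22.8 to 49.3 and 52.5 CPM (log2 1.21, SE 0.072), and rose in KO as well (log2 0.98). *Fth1*, the ferritin heavy chain, rose in KO from 1966 and 1969 to 3151 and 3214 CPM (log2 0.69, SE 0.013), and rose in EV as well (log2 0.62). Of the superoxide dismutases and catalase, JSH-23 raised 3 of 4 in each genotype and lowered 0, beside the same shares of all genes, with *Cat* rising from 61.8 and 58.5 to 103 and 100.3 CPM in KO (log2 0.76, SE 0.043).

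Of 12 tested further regulators, JSH-23 raised 3 and lowered 7 in KO (median -0.20), beside 33.4% and 34.4% of all genes, and raised 3 and lowered 5 in EV (median -0.014), beside 28.6% and 27.2%. KO with vehicle had 4 higher and 2 lower (median -0.017), beside 25.0% and 25.5%. The small MAF partners did not all move alike. *Mafk* rose with JSH-23 in KO from 27.5 and 26.1 to 46.9 and 48.8 CPM (log2 0.84, SE 0.067), and *Maff* fell from 304 and 319 to 189 and 186 CPM (log2 -0.73, SE 0.028). *Mafg* fell there as well (log2 -0.55, SE 0.029). In EV, JSH-23 gave 0.61 for *Mafk*, -0.50 for *Maff* and -0.26 for *Mafg*. *Nfe2l1*, the related factor that controls proteasome genes, was higher in KO with vehicle, at 655 and 648 CPM against 399.9 and 398 in EV (log2 0.71, SE 0.021). Apart from *Cbr1* (0.0251) and *Aldh3a1* (0.0326) in KO with vehicle, the adjusted p of every named change in these lists was at most 0.00233 in edgeR.

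**Figure D4:**
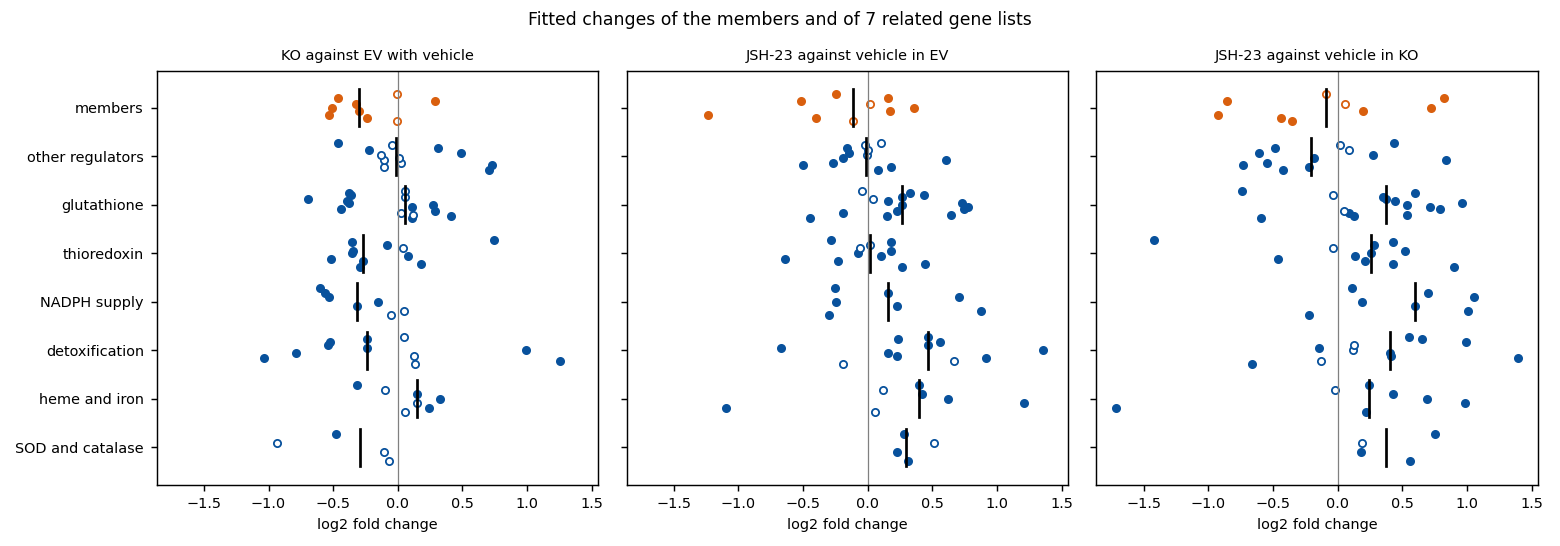
Log2 fold changes of the 9 tested members (orange) and of 7 related lists (blue) in 3 comparisons; each point is a gene, filled where the adjusted p is under 0.05, and black bars are list medians. The NADPH supply list, in which *Taldo1*, *Tkt* and *Pgls* encode enzymes that make no NADPH, has a median of -0.32 in KO with vehicle. With JSH-23 in KO its median is 0.60, the value of *Tkt*, while the members spread to both sides. All points are TMM-scaled, and on the TPM scale the median of all genes itself lies at -0.20 with JSH-23 in KO.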

How the data were processed

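RNA-seq covered 8 samples of sorted Myc-CaP tumor cells in 4 groups of 2, grouped from the sample labels. The deposited counts are whole numbers of reads per gene that the authors did not normalize. The paper's methods name TopHat2 on GRCm38/mm10 with strand-specific HTSeq counting of the best match, whereas the submitters' processing notes name HISAT2, HTSeq, DESeq2 and mm10, so the aligner is uncertain. The authors also deposited TPM values, which were recomputed here from count and gene length to within 4.8e-06. With only a best match kept, a read shared by paralogs may be counted for the wrong one.

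Counts were filtered with filterByExpr, leaving 13921 of 39089 genes, scaled with TMM factors of 0.949 to 1.03, and fitted over all 8 samples with a mean per group in edgeR 4.0.16 (quasi-likelihood test, R 4.3.3). A total of 5 comparisons were tested, with Benjamini-Hochberg adjustment over all genes. A call is an adjusted p under 0.05, also counted with at least 1.5-fold. The 2 samples of each group differed by more than sampling noise (chi-square per degree of freedom 1.46 to 1.57) and were kept apart.

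Alternatives were DESeq2 1.42.0, library size alone, no filter, a replicate block, a minimum of 10 counts in every sample, a fit of only the groups compared, limma 3.58.1 on log2(TPM + 1) and log2(TPM + 0.1), a biological coefficient of variation of 0.1, and leaving out each sample. The members and lists were chosen with earlier results of these data known. Genes named from the 7 other lists are, per list, up to 3 with the largest absolute log2 fold change among those called with at least 1.5-fold and a mean of at least 1 CPM in any pairwise comparison. The exceptions, named after their values were seen, are *Pgd*, *Me1*, *H6pd*, *Tkt*, *Slc7a11*, *Gpx1*, *Abcc4*, *Mafg*, *Cbr1*, and *Aldh3a1* in KO with vehicle. The mean target profile uses 7 genes because *Nqo1* was not tested. Gene coordinates are GENCODE M21 (GRCm38), the same in RefSeq GRCm38.p6 for all 10 genes. Promoter sequences are from RefSeq. A marker of the epithelial list is not reported here.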

Additional observations from a re-analysis of the deposited data

Results flagged for a closer look

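The JSH-23 effect differed between KO and EV tumors, by edgeR's interaction test, for 6 of the 9 genes tested. Over all genes, 20.5% were called with a more positive effect in KO and 17.9% with a more negative one. The log2 difference, KO minus EV, was 0.66 for *G6pdx*, 0.36 for *Gclm*, 0.31 for *Hmox1*, 0.15 for *Gsr*, -0.24 for *Nfe2l2* and -0.34 for *Srxn1*. *G6pdx* was raised in both genotypes and more in KO, *Gclm* likewise, *Srxn1* was lowered in both and more in KO, and *Hmox1* was lowered in both and less in KO. The differences for *Nfe2l2* and *Gsr* were not called by DESeq2, those for *Hmox1*, *Gclm* and *Gsr* were not called on the TPM scale, and with a coefficient of variation of 0.1 only that of *G6pdx* was called, beside 5.37% of all genes. On log2(TPM + 1), where the median of all genes was -0.17, 1 gene was called higher (*G6pdx*) and 5 lower, *Nfe2l2* and *Srxn1* together with *Keap1* (-0.23), *Gclc* (-0.17) and *Txnrd1* (-0.16).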

How the results depend on the processing

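Of 756 values of the 9 tested genes under the alternatives, 665 kept direction and side of the threshold, 45 lost a call, 14 gained one and 32 changed sign. A coefficient of variation of 0.1 reduced the genes called from 7 to 3 for KO against EV with vehicle, from 8 to 0 with JSH-23, from 7 to 3 for JSH-23 in EV and from 6 to 1 for the interaction; 6 of 7 stayed called for JSH-23 in KO. DESeq2 lost 3 calls, the interaction for *Nfe2l2* and *Gsr* and KO against EV with JSH-23 for *Gclm*. With library size alone the median of all genes was -0.13 for JSH-23 in KO and -0.11 for the interaction, and on log2(TPM + 1) it was -0.20 and -0.17, with -0.16 for KO against EV with JSH-23. The share of all calls that were higher fell from 49.3% to 37.7% and 25.2% for JSH-23 in KO, from 53.3% to 33.1% and 18.7% for the interaction, and from 49.4% to 34.4% and 17.8% for KO against EV with JSH-23.

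Sign changes on log2(TPM + 1) and log2(TPM + 0.1) were -0.0403 and -0.0406 for *Gclc* and -0.177 and -0.1796 for *Txnrd1* with JSH-23 in KO, -0.0203 and -0.0205 for *Txnrd1* with JSH-23 in EV, -0.041 and -0.0416 for *Gsr* in KO against EV with JSH-23, and, in the interaction, -0.1718 and -0.173 for *Gclc*, -0.1567 and -0.159 for *Txnrd1* and -0.0447 and -0.0453 for *Gsr*. With library size alone they were -0.0578 for *Txnrd1* with JSH-23 in KO, -0.0807 for *Gclc* and -0.0683 for *Txnrd1* in the interaction. In KO against EV with vehicle, where *Nfe2l2* and *Gsr* lay near 0, both were 0.0229 with library size alone and 0.0086 with at least 10 counts in every sample, and 0.0036 to 0.0037 on the TPM scales. All these shifts on the TPM and library size scales went with the median of all genes; their cause was not tested further. Leaving out 1 sample gave -0.0195 to 0.0145 for *Nfe2l2* and -0.0188 to 0.0135 for *Gsr* there, -0.1001 to 0.0239 for *Keap1* and -0.0097 to 0.0588 for *Gclc* in the interaction. *Nfe2l2* with JSH-23 in EV was -0.15 without EV with JSH-23 replicate 1. It was called with library size alone (-0.13), with at least 10 counts in every sample (-0.13), on log2(TPM + 1) (-0.15) and on log2(TPM + 0.1) (-0.16).

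With the replicate block, 7, 8, 7, 7 and 6 of the genes were called in the 5 comparisons, as without it. Same-numbered samples did not deviate together (correlations of -0.007 to 0.026 over 9194 genes). With 2 samples a group, the calls rest on an estimated spread of 1.61%.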
